A study of Homo sapiens with 4 samples.

Results

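Kruppel-like factors were followed in HCT116 cells, an established colorectal carcinoma line, with and without a stable knockdown of plakophilin3 (PKP3), an armadillo protein of desmosomes. The members were KLF2, KLF3, KLF4, KLF5, KLF6, KLF7, KLF9, KLF10, KLF11 and KLF13, chosen by gene name. These are 10 of the 19601 genes on the array that could be matched to a RefSeq symbol, and they were measured by 18 of its 50238 probes on each of 4 arrays. The control was a clone with the vector (vec) and the knockdown was the clone shpkp3-2, which carries a plasmid with an shRNA against PKP3. Each group was 1 clone measured on 2 arrays, so differences between clones and the effect of the knockdown cannot be told apart. RNA of vec 1 and shpkp3-2 1 was collected on 1 occasion, and RNA of vec 2 and shpkp3-2 2 on another. The sample labels name 5 μg/ml puromycin as the selection of the clones, while the methods name blasticidin. The design asks whether transcript levels differ between the clones, and here it is asked for the Kruppel-like factors.

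Kruppel-like factors are transcription factors with 3 zinc fingers at the end of the protein that bind GC-rich and CACCC sequences in promoters and enhancers. They differ in the part before the fingers. Several activate transcription, KLF3 recruits the corepressor CtBP, and KLF9, KLF10, KLF11 and KLF13 can recruit the corepressor Sin3A. In the intestine KLF5 is known from the dividing cells of the crypt and KLF4 from the cells that have left the cell cycle.

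The expression of KLF5 was lower in the PKP3 knockdown clone on both of its probes, by a log2 fold change of -0.61 (SE 0.18) and -0.92 (SE 0.21), but neither probe passed the test across all probes. None of the other 9 members had as low an adjusted p. KLF2, KLF10 and KLF11 also had lower values on both knockdown arrays than on both vec arrays, as did 18.0% of all probes tested. For KLF2 and KLF10 the difference in the second RNA collection was only -0.03 on the brightest probes. KLF4, KLF9, KLF6, KLF3, KLF7 and KLF13 overlapped between the clones on their brightest probes. Of the 17 probes tested, limma (moderated test, Benjamini-Hochberg adjusted p under 0.05) called 0. It called 0.249% of the 30520 probes on the array that were tested as higher and 0.147% as lower.

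The probes are 60 bases long, and 5 of those for the Kruppel-like factors lie in the part of the transcript that codes for the zinc fingers. They are shown because the members share this stretch, and because the probe of KLF5 with the largest difference is among them. In the probes of KLF3, KLF6 and KLF13 the capitals mark the 21 bases that code for a linker between neighbouring fingers.
KLF3: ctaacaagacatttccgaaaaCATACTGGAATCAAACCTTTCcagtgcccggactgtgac
KLF6: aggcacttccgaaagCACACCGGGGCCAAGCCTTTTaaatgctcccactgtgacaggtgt
KLF13: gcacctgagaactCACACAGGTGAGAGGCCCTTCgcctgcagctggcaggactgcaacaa

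The linker of KLF3 shared 14 of 21 bases with that of KLF6 and 12 of 21 with that of KLF13. Aligned on the linker, the probes of KLF3 and KLF6 were identical at 39 of 54 bases. Those of KLF3 and KLF13 were identical at 24 of 52 and those of KLF13 and KLF6 at 30 of 58. The KLF13 probe codes a wider spacing of the cysteines after the linker than the probes of KLF3 and KLF6. Its linker is thus a different one among the fingers, and the counts with KLF13 do not compare matching stretches. Binding of one member's transcript to the probe of another was not tested. A linker of this kind was coded by 46 probes of the array, or 0.0916%.

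In the probes of KLF4 and KLF5 the capitals mark the 42 bases of a finger from its second zinc-binding cysteine to its first zinc-binding histidine. These are the only probe of KLF4 and the second probe of KLF5.
KLF4: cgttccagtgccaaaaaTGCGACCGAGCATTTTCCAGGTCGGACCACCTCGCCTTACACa
KLF5: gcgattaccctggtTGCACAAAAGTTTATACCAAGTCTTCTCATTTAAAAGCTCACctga

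The brightest probe of KLF5 carries no such finger. Its first 30 bases, in lower case since no part of them is marked, identify it.
KLF5 brightest probe: cgttgaattgatgatgcagttttcatatat

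The PKP3 probe checks the labels. Its log2 fold change was -2.54 (SE 0.23, limma adjusted p 0.0188), so that shpkp3-2 was at 17.2% of vec. The share of spots well above background was 60.5% to 63.5% per array, with 26 to 39 outlier spots and 0 saturated spots. The keratins KRT8, KRT18 and KRT19 of simple epithelium were well above background, as were 9 of 11 markers of colon and simple epithelium, while VIL1 and CDH17 did not pass the detection filter. KRT5 and KRT1 of stratified epithelium, PTPRC of leukocytes, COL1A2 and COL3A1 of fibroblasts and CDH5 and KDR of endothelium were not well above background on any array. The marker lists of these other cells had 2 of 5 genes for stratified epithelium, 1 of 6 for fibroblasts, 3 of 5 for immune cells and 2 of 4 for endothelium well above background on all 4 arrays, and limma called 0 of them.

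Values are the log2 of the processed signal minus the 75th percentile of the array, so that 0 is the 75th percentile of the spots that are not controls, and they are compared only within a probe. Of the 18 probes, 16 were well above background on all 4 arrays. The exceptions were a pair of probes for alternative KLF6 transcripts. For 6 genes there were several probes and for 4 genes only 1, and the brightest probe stands for the gene. The plot of each array against the mean of vec shows how far the arrays of 1 clone lay apart.

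**Figure D1:**
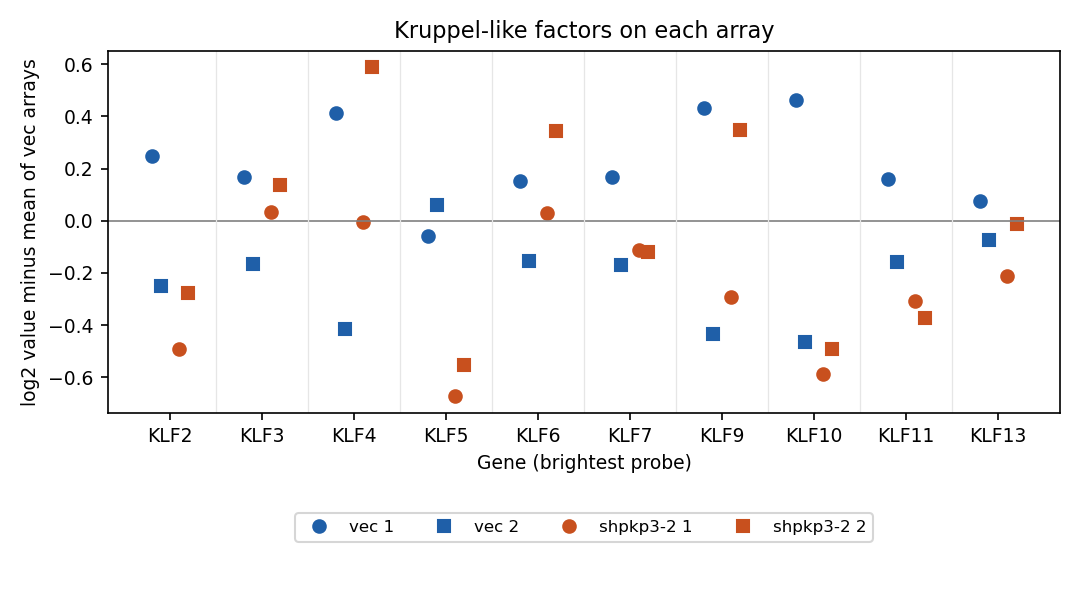
Normalized log2 value of the brightest probe of each Kruppel-like factor on each array, minus the mean of the 2 vec arrays for that probe. Blue is vec and orange is shpkp3-2, and circles and squares are the first and the second RNA collection. For KLF5 both orange points lie below both blue points by more than the blue points lie apart, while for KLF4 and KLF9 the points of each clone spread widely and overlap.

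KLF5 is an activator of genes for cell division in epithelia. On its brightest probe the values were 4.27 and 4.39 in vec against 3.66 and 3.78 in shpkp3-2. The arrays of a clone were close to each other and those of the knockdown clone were the lower ones. The log2 fold change was -0.61 (95% interval -1.05 to -0.18), which puts shpkp3-2 at 65.4% of vec. The limma p was 0.0135 before and 0.278 after adjustment. Within the first RNA collection the difference was -0.61 and within the second it was -0.61 as well.

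The finger probe of KLF5, printed above, read 2.09 and 1.71 in vec against 0.89 and 1.09 in shpkp3-2. Again both knockdown arrays were below both vec arrays. The log2 fold change was -0.92 (95% interval -1.43 to -0.40), or 53.0% of vec, with a limma p of 0.00494 before and 0.205 after adjustment. The difference was -1.21 in the first RNA collection and -0.63 in the second. The KLF5 probes were the only ones of the Kruppel-like factors with an unadjusted p under 0.05. That makes 2 of 17 probes lower and 0 higher at that level, where 4.98% of all probes tested were lower and 7.36% higher. Both probes measure the same gene. By brightest probes 1 of 10 genes was lower, where 4.51% of all genes tested were. Leaving out 1 array at a time gave values between -0.67 and -0.55 for the brightest probe and between -1.11 and -0.73 for the finger probe. The lowest adjusted p of the finger probe over the alternatives was 0.0666, and the highest was 0.697.

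KLF4, a factor of differentiated epithelium that induces inhibitors of the cell cycle, did not separate the clones. Its values were 0.28 and -0.55 in vec against -0.14 and 0.45 in shpkp3-2. The highest and the lowest value were thus on the second arrays, and the first arrays lay between them. The log2 fold change was 0.29 (SE 0.34, 95% interval -0.54 to 1.13, limma adjusted p 0.752), an interval that holds a doubling as well as no difference. The difference between knockdown and control was -0.42 in the first RNA collection and 1.00 in the second. Without vec 2 the log2 fold change was -0.12 and without shpkp3-2 2 it was close to 0, at -0.0039.

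KLF2, known for the quiescence of T cells and for its induction by flow in endothelium, had values of 4.73 and 4.23 in vec against 3.98 and 4.20 in shpkp3-2. The arrays did not overlap, but vec 2 and shpkp3-2 2 were nearly equal. The log2 fold change was -0.38 (SE 0.23, limma adjusted p 0.553), and the difference was -0.74 in the first RNA collection and -0.03 in the second. A second KLF2 probe read -2.68 and -3.10 in vec against -3.53 and -3.13 in shpkp3-2, which gave -0.44 (SE 0.24, limma adjusted p 0.523). This probe had the same order of arrays as the first, with vec 1 highest and shpkp3-2 1 lowest, but its log2 fold change was -0.094 under normexp background correction and lay between -0.65 and -0.22 with 1 array left out. Without vec 1 the log2 fold change of the brightest probe was -0.14, and without vec 2 it was -0.63.

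KLF6 is a widely expressed activator that is induced by injury, and KLF7 is its closest relative in the family and is known from neurons. The brightest KLF6 probe read 3.80 and 3.49 in vec against 3.67 and 3.98 in shpkp3-2. The finger linker probe of KLF6 read 1.61 and 1.60 in vec against 1.58 and 1.98 in shpkp3-2. On both probes the value of shpkp3-2 2 was the highest and the other knockdown array lay among or below the vec arrays. The log2 fold changes were 0.19 (SE 0.21, limma adjusted p 0.748) and 0.18 (SE 0.21, limma adjusted p 0.75). Leaving out 1 array at a time gave 0.030 to 0.34 for the brightest probe and -0.022 to 0.38 for the linker probe.

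Another KLF6 probe, listed in the files under another transcript, was near the background. It read -5.29 and -5.35 in vec against -4.82 and -4.98 in shpkp3-2, where it was well above background on both arrays, as it was on vec 1 but not on vec 2. It was the only probe of these genes with both knockdown arrays above both vec arrays, at a log2 fold change of 0.42 (SE 0.18, limma adjusted p 0.416). Since it entered the test only through the knockdown arrays, where it was higher, this value and its place in the counts are no support for a difference. The last KLF6 probe, also listed under a transcript of its own, was below that level on all 4 arrays and was not tested. KLF7 was dim, with -3.83 and -4.16 in vec against -4.11 and -4.11 in shpkp3-2. Both knockdown arrays fell between the vec arrays, and the log2 fold change was -0.11 (SE 0.20, limma adjusted p 0.840).

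KLF3, the member of this group that recruits CtBP, showed no separation on either probe. The brightest probe read 2.23 and 1.90 in vec against 2.10 and 2.20 in shpkp3-2. The knockdown arrays lay within the range of the vec arrays, and the log2 fold change was 0.08 (SE 0.20, 95% interval -0.40 to 0.57, limma adjusted p 0.888). On the linker probe printed above the values were -2.99 and -3.55 in vec against -3.58 and -3.24 in shpkp3-2. Its log2 fold change had the other sign, -0.14 (SE 0.26, limma adjusted p 0.856), with overlapping arrays.

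Among the members that can recruit Sin3A, KLF10 and KLF11 are known as early genes of the TGF-beta response. KLF10 read 2.75 and 1.82 in vec against 1.70 and 1.79 in shpkp3-2. Here vec 1 stood apart and the other arrays were close together. The log2 fold change was -0.54 (SE 0.32, 95% interval -1.33 to 0.24, limma adjusted p 0.546), made up of -1.05 in the first RNA collection and -0.03 in the second. Without vec 1 it was -0.08, and without vec 2 it was -1.01.

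For KLF11 both probes had negative fold changes. Its brightest probe read -0.47 and -0.79 in vec against -0.93 and -1.0 in shpkp3-2, and its second probe -3.74 and -3.59 in vec against -3.82 and -3.90 in shpkp3-2. On both probes the knockdown arrays were the 2 lowest. The log2 fold changes were -0.34 (SE 0.19, limma adjusted p 0.537) and -0.20 (SE 0.18, limma adjusted p 0.676). The brightest probe gave -0.18 without vec 1 and -0.50 without vec 2, and the second probe gave 0.09 under normexp background correction.

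KLF9, which responds to thyroid hormone and glucocorticoids, read 1.34 and 0.47 in vec against 0.61 and 1.25 in shpkp3-2. The arrays of each clone lay far apart and the clones shared the same range. Its log2 fold change of 0.03 (SE 0.36, 95% interval -0.84 to 0.90, limma adjusted p 0.983) was the mean of opposite differences, -0.73 in the first RNA collection and 0.78 in the second. KLF13, known from lymphocytes, was even across the arrays, with 4.24 and 4.09 in vec against 3.96 and 4.16 in shpkp3-2. Its log2 fold change was -0.11 (SE 0.18, 95% interval -0.56 to 0.34, limma adjusted p 0.835), and it lay between -0.21 and -0.013 with 1 array left out. The linker probe of KLF13, printed above, read -1.74 and -1.79 in vec against -2.20 and -2.01 in shpkp3-2. On that probe the clones did not overlap, and the log2 fold change was -0.34 (SE 0.18, limma adjusted p 0.502).

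**Figure D2:**
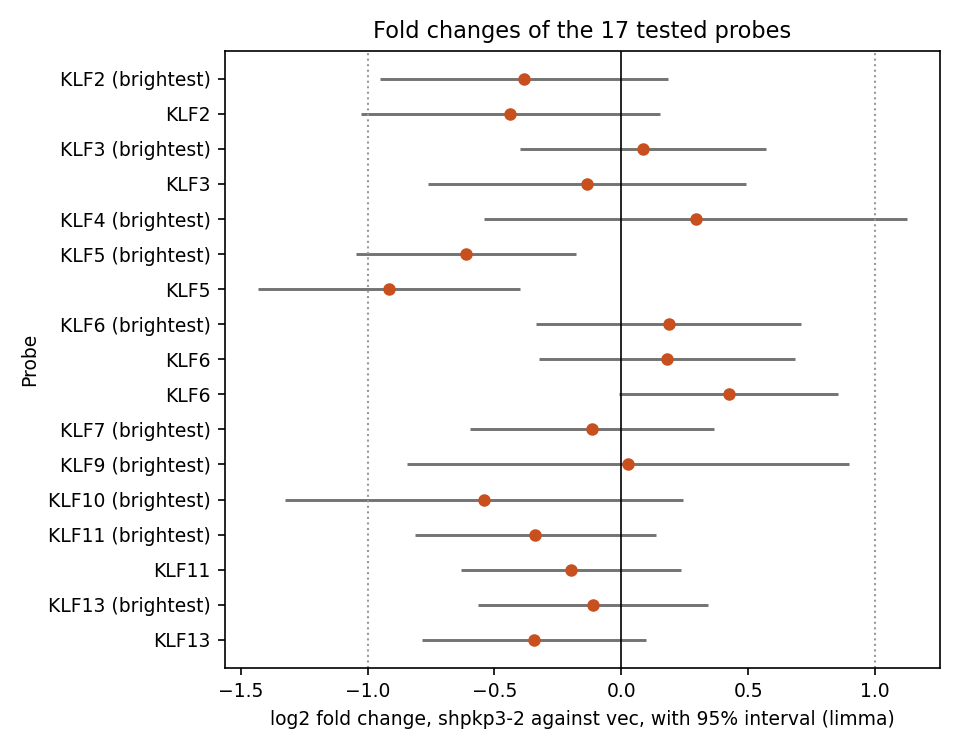
log2 fold change of shpkp3-2 against vec for each of the 17 tested probes of Kruppel-like factors (points) with the 95% interval from limma (lines). Dotted lines mark a 2-fold difference. Only the intervals of the 2 KLF5 probes, -1.05 to -0.18 and -1.43 to -0.40, leave out 0, and neither passed the adjusted threshold.

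Taken over all their probes, the Kruppel-like factors had more negative than positive fold changes, and most of these were small. Of the 17 probes tested, 6 had a positive and 11 a negative log2 fold change, where 56.9% of all probes tested were positive and 43.1% negative. The median was -0.14 over these probes and 0.05 over all probes tested. Over the brightest probes of the 10 genes the median was -0.11, beside 0.05 over the 14583 genes tested. That median rested on single arrays, as it was 0.0085 without vec 1 and -0.34 without vec 2. The knockdown arrays were both below the vec arrays for 8 of the 17 probes (18.0% of all probes tested) and both above for 1 (27.2% of all probes tested). The 8 include pairs of probes for KLF2, KLF5 and KLF11. By brightest probes the knockdown arrays were both below for 4 of the 10 genes and both above for 0. A log2 difference of at least 1 from the vec mean on each knockdown array was met by 0 of the 17 probes, where 0.623% of all probes were lower and 1.12% higher by this count. For 12 of the 17 probes the 95% interval lay within a 2-fold difference either way. The exceptions were KLF4, KLF10, the second KLF2 probe and both KLF5 probes.

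The array vec 1 held the highest of the 4 values for 11 of the 17 probes, while it did so for 26.6% of all probes tested. The highest value was on vec 2 for 2 probes (23.6% of all), on shpkp3-2 1 for 1 (27.6%) and on shpkp3-2 2 for 3 (22.2%). The 75th percentile of its intensity before scaling was 499, and those of the other arrays were between 374 and 381. Over all probes tested the median SD between arrays was 0.20 in vec against 0.12 in shpkp3-2.

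The difference between knockdown and control had opposite signs in the 2 RNA collections for 8 of the 17 probes, a share near the 44.9% of all probes tested. These were KLF4, KLF7, KLF9, both KLF3 probes, the brightest KLF13 probe and the 2 KLF6 probes well above background on all arrays. KLF2, KLF5, KLF10 and KLF11 had the same sign in both collections on each of their probes, though the difference in the second was close to 0 for KLF2 and KLF10, at -0.03 on the brightest probes.

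**Figure D3:**
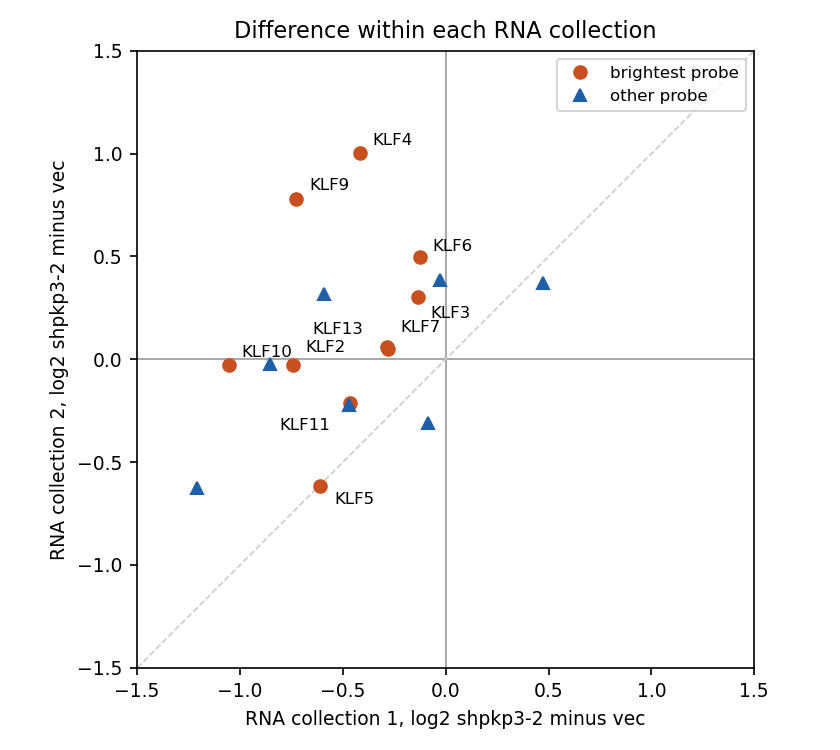
Difference between shpkp3-2 and vec (log2) for each tested probe, in the first RNA collection on the horizontal axis and in the second on the vertical axis. Circles are brightest probes and triangles other probes, and the dashed line marks equal differences. KLF5 lies on the line at -0.61 and -0.61, while KLF4 (-0.42 and 1.00) and KLF9 (-0.73 and 0.78) lie in the corner of opposite signs.

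No setting of the processing that was tried brought a Kruppel-like factor past the threshold. There were 15 such settings for a gene, of which 14 used its brightest probe and the last the mean of its tested probes. For the other probes there were 14, and 13 for the dim KLF6 probe. KLF2, KLF5, KLF6, KLF10, KLF11 and KLF13 kept their sign in all 15 alternatives, and KLF3, KLF4, KLF7 and KLF9 did not. The range of KLF5 was narrow, from -0.76 to -0.55, and that of KLF10 was wide, from -1.01 to -0.08. The -0.76 of KLF5 was the mean of its probes.

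**Figure D4:**
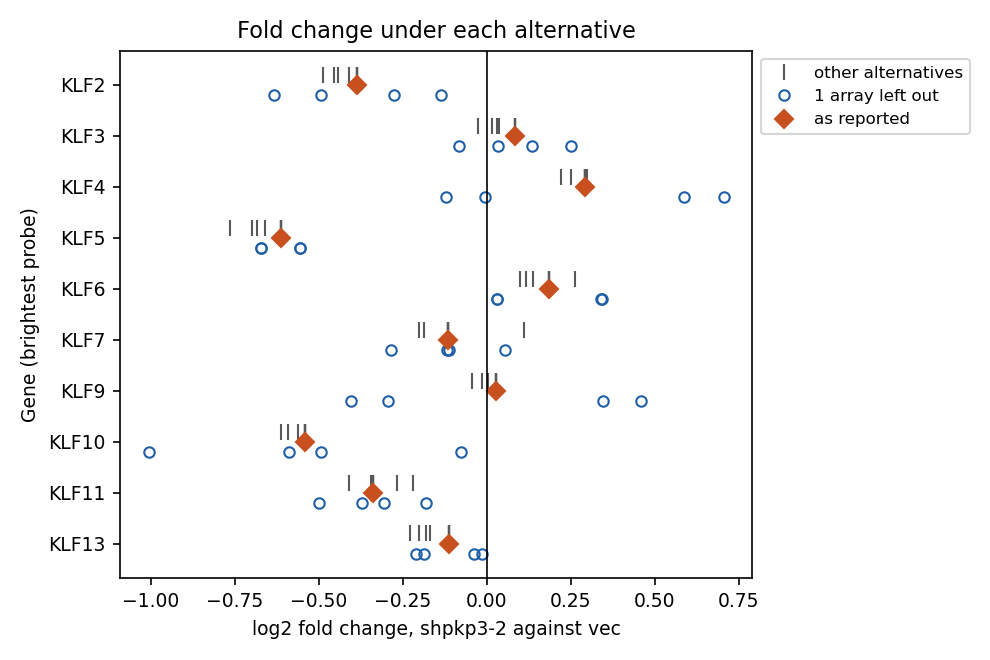
log2 fold change of the brightest probe of each Kruppel-like factor as reported (diamond) and with 1 array left out (open circles). Ticks are the other alternatives, among them the mean over all tested probes of the gene. All KLF5 values lie between -0.76 and -0.55, and the values of KLF4 and KLF9 fall on both sides of 0 when single arrays are left out.

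The rest of the KLF and SP family, which shares the zinc fingers, had no member past the threshold either. Of 16 further family members on the array 12 were tested, and KLF1, KLF17, SP4 and SP7 did not pass the detection filter. limma called 0 of the 12, and 1 was higher and 0 were lower at an unadjusted p under 0.05, where 6.99% of all genes tested were higher and 4.51% lower. The median log2 fold change was -0.11, with 5 positive and 7 negative. With 1 array left out the median lay between -0.078 and 0.0039. Among the brightest probes the highest value was that of KLF8, a partner of CtBP like KLF3, with -2.44 and -2.38 in vec against -1.80 and -1.75 in shpkp3-2. Both knockdown arrays were the higher ones, at a log2 fold change of 0.64 (SE 0.17, limma adjusted p 0.253). A second KLF8 probe had the other sign, -0.51 (SE 0.39, limma adjusted p 0.621). The lowest was that of SP2, -0.74 (SE 0.50, limma adjusted p 0.587), which was -1.65 in the first RNA collection and 0.17 in the second.

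Proteins that act with Kruppel-like factors were represented by 20 corepressors, coactivators and ubiquitin ligases, all of them tested. limma called 0 of the 20, with 8 positive and 12 negative values and a median of -0.05. That median lay between -0.14 and 0.032 with 1 array left out. By the brightest probes the acetyltransferase KAT2B was lowest and the only gene with an unadjusted p under 0.05 (4.51% of all genes were lower at that level), at -1.03 (SE 0.26, limma adjusted p 0.236). It read -2.03 and -2.62 in vec against -3.53 and -3.17 in shpkp3-2, and with the replicate block its adjusted p was 0.0449. The acetyltransferase CREBBP had the highest value among the brightest probes, 0.50 (SE 0.31, limma adjusted p 0.562). A dimmer probe of the coactivator YAP1, named after its value was seen, had a higher value, 2.62 (SE 0.65, limma adjusted p 0.226), while the brightest YAP1 probe was at 0.37 (SE 0.21, limma adjusted p 0.538).

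Of 20 genes upstream of KLF genes 19 were tested and 0 called, with a median of 0.05. The sign of this median was not stable. It lay between -0.13 and 0.096 with 1 array left out, and was -0.014 under quantile normalization and -0.017 under median centring. MEF2C, a factor through which MAPK7 (ERK5) induces KLF2 and KLF4, was the highest and the only 1 with an unadjusted p under 0.05, a count near the 6.99% of all genes that were higher at that level. Its values were 1.00 and 0.60 in vec against 1.54 and 1.61 in shpkp3-2, a log2 fold change of 0.77 (SE 0.21, limma adjusted p 0.253).

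Among 39 textbook target genes of these factors 33 were tested and limma called 0, with 14 positive and 19 negative values and a median of -0.07. Leaving out 1 array moved the median to between -0.16 and -0.038. An unadjusted p under 0.05 was met by 1 of them as higher and by 3 as lower, where 6.99% and 4.51% of all genes tested were higher and lower at that level. LAMB3, a laminin chain, had the highest value among the brightest probes, 0.49 (SE 0.19, limma adjusted p 0.392). CEBPA, a factor of differentiation, was lowest at -1.31 (SE 0.34, limma adjusted p 0.241). It read 6.88 and 5.93 in vec against 4.90 and 5.28 in shpkp3-2, and it was the only gene of these lists to meet the 2-fold count. Its adjusted p was 0.00855 with the replicate block, while its other 2 probes had log2 fold changes of -0.07 and -0.02. PLAU (-0.95, SE 0.18, limma adjusted p 0.145) and the growth factor PDGFA (-0.97, SE 0.25, limma adjusted p 0.241), which is a target of KLF5, were also lower on both knockdown arrays. A dimmer probe of EGFR, the EGF receptor, had a log2 fold change of 0.95 (SE 0.18, limma adjusted p 0.142), while its brightest probe was at 0.36 (SE 0.31, limma adjusted p 0.667) with opposite signs in the 2 RNA collections. PLAU, PDGFA and EGFR were named after their values were seen.

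**Figure D5:**
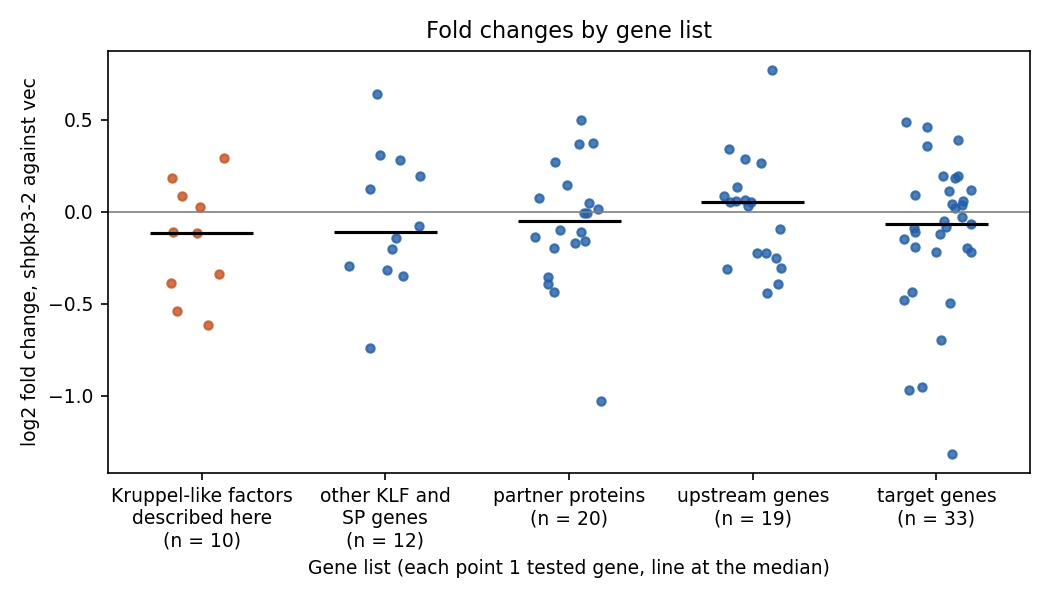
log2 fold change of each tested gene (points, brightest probe) in the list of 10 Kruppel-like factors and in the 4 related gene lists, with the median of each list as a line. The medians lie between -0.11 and 0.05, and no gene shown passed the adjusted threshold.

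The promoters of the members, read as windows of 300 bases around the start of the gene in RefSeq (GRCh38.p14), differed in base composition. Of the 10 genes 8 had an entry, and KLF3 and KLF10 were missing. The share of G and C ran from 32.7% for KLF9 and 40.7% for KLF5 to 80.7% for KLF2, with a median of 69.8% beside 58.3% over 27305 promoters. The letters CACCC, searched on both strands, were in the windows of KLF5, KLF7 and KLF13, or 3 of 8, and in 58.9% of all promoters. GGGCGG, the GC box bound by the family, was in 5 of 8 windows and in 44.6% of all, with 6 copies at KLF2, 4 at KLF4 and 0 at KLF5. TATAAA was found at KLF5 only among these 8, and in 12% of all promoters. These counts describe letters in a window and were not tied to the array values.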

How the data were processed

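Cy3 labeled RNA of 4 samples was hybridized to single color Agilent arrays. The authors ran the Agilent Feature Extraction software (9.1 per the submitters' processing notes), and the deposited intensity of each spot is background subtracted and detrended but not scaled between arrays. The deposited files also hold raw mean and background intensity and software flags, another kind of value. For this report log2 of the processed intensity was taken, the 75th percentile over 51538 spots that are not controls was subtracted, outlier spots were dropped and spots of a probe averaged. Each array sums many spots and has no read depth. Precision is set by the number of arrays, and an exact permutation test of 2 against 2 arrays cannot give a two-sided p below 0.333. The labels call the samples of a clone biological replicates. The limma p-values rest on the spread between arrays of the same clone, pooled over both clones and moderated over all probes tested. They hold no spread between clones.

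Probes with the flag for well above background on each array of vec, of shpkp3-2 or of both were compared with limma 3.58.1 (R 4.3.3, no covariates) with Benjamini-Hochberg adjustment at 0.05. The series design pairs the arrays by RNA collection. The deviations of same-numbered arrays correlated at -0.199 over the probes tested, and the replicate block was kept as an alternative. Named genes were all members, PKP3, and from each list the genes that passed limma or the 2-fold count and the highest and lowest value, of which 1 is not reported here. The members, the lists and the tests were chosen with earlier results of these data known. Alternatives were normexp (offset 50), quantile normalization, median centring, detection filters, a floor of 5, a trended and robust prior, the replicate block, the mean of a gene's probes and leaving out each array. limma was also run on simulated arrays that were independent and had equal spread in both clones, unlike these arrays. That run checks only the code. Genes were matched to RefSeq (GRCh38.p14), and no coordinates are given since the array was designed on another build. Tables and figures were made with Python 3.11.15 (pandas 2.3.3, matplotlib 3.10.9).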

Additional observations from a re-analysis of the deposited data

How the results depend on the processing

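No alternative brought a probe of the Kruppel-like factors past the threshold. PKP3 kept its log2 fold change of -2.54 but not its call with no filter on detection (limma adjusted p 0.135) and with the weaker flag, positive and significant (0.145). It passed in the other 12 alternatives. Some signs turned, and the cause was not tested. With 1 array left out, KLF3 ranged from -0.082 to 0.25 and its second probe from -0.42 to 0.14, KLF4 from -0.12 to 0.71, KLF7 from -0.28 to 0.054, KLF9 from -0.41 to 0.46 and the linker probe of KLF6 from -0.022 to 0.38. KLF3 was -0.026 as the mean of its probes. Under normexp KLF7 was 0.11, the second KLF11 probe 0.093 and KLF9 -0.014, and under median centring KLF9 was -0.043. With the array left out, 1 clone has 1 array, assumed to vary like the other clone.

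Over all probes limma called 76 as higher and 45 as lower. The counts were 42 and 32 with quantile normalization, 10 and 8 with no filter, 25 and 21 among probes well above background on all arrays, 1 and 1 with the weaker flag, and 503 and 338 with the replicate block. They ran from 108 to 243 and from 55 to 154 with 1 array left out. The crossed pairing, chosen after seeing the data, gave 64 and 40. Pairing by the replicate block changed no call of a Kruppel-like factor: the adjusted p of KLF5 was 0.358 and that of its finger probe 0.0770. In the related lists it brought 2 genes past the threshold, KAT2B and CEBPA. PLAU passed under normexp (0.0311). VIL1 without shpkp3-2 1 and SP7 without shpkp3-2 2 entered the fit only through the remaining knockdown array, where they were high, so their low adjusted p there supports nothing. With no filter it was 0.495 and 0.816. Dim probes are limited by the background, as for KLF7 and the KLF6 probes listed under other transcripts.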
